A study of Danio rerio with 3 samples.

Results

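The genes described are those of the zebrafish whose symbols name a receptor for glutamate, GABA or glycine. They were chosen by symbol alone, from the letters and number that name an ionotropic or metabotropic glutamate receptor subunit (*gria*, *grid*, *grik*, *grin*, *grm*), a GABA-A subunit (*gabra*, *gabrb*, *gabrd*, *gabrg*, *gabrr*, *gabrz*) or a glycine receptor subunit (*glra*, *glrb*). The rule, which was chosen with earlier results of these data known, found 66 of the 28084 named genes of the expression table. They are 8 AMPA, 4 kainate, 11 NMDA, 3 delta and 13 metabotropic glutamate receptor genes, 18 GABA-A subunit genes and 7 glycine receptor genes. The other 2, *grid2ipa* and *grid2ipb*, share the letters but encode delphilin, a protein that binds the delta receptor and is no subunit.

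RNA-seq was run on whole larvae of the AB strain at 6 days post-fertilization (dpf), with 1 library per group. The library labelled 5MO came from larvae injected with an *atg5* morpholino, an antisense oligonucleotide against the transcript of the autophagy gene *atg5*, and carries the genotype label *atg5* knockdown. The library labelled 5mRNA came from larvae injected with *atg5* mRNA and carries the label *atg5* overexpression. The WT library came from untreated wild-type larvae, which were not injected, so in each comparison with WT the injection and *atg5* cannot be told apart. Morpholinos were injected into embryos of the first cell divisions. In 5MO and WT, each library was made from many larvae together, and its values are averages over these animals. The study asked how autophagy and Hedgehog signalling bear on bone formation.

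Glutamate is the main excitatory transmitter of the vertebrate brain, and GABA and glycine are the main inhibitory ones. Ionotropic receptors are channels built from several subunits, which can be the products of more than 1 gene. AMPA and kainate receptors carry fast excitation, and NMDA receptors pass calcium and combine a glycine-binding GRIN1 subunit with glutamate-binding GRIN2 subunits. GABA-A and glycine receptors are chloride channels, and metabotropic glutamate receptors act through G proteins. Many of these genes have paralogs in zebrafish, marked by the letters a and b.

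The levels are RPKM (reads per kilobase of gene, scaled to the read total of the library), which allows levels of different genes to be compared per length. The RPKM values rest on 20301332 reads in 5MO, 21857365 reads in 5mRNA and 19502144 reads in WT. From the whole-number steps of the values the reads of each gene were recovered, and each ratio of read shares is given below with its 95% Clopper-Pearson counting interval in brackets. Such an interval covers counting error between these libraries only. Each group being 1 library, differences could not be checked on replicates, no p-value was computed, and the comparisons are of libraries, not of conditions. *atg5* itself had 7.69 RPKM in 5MO, 8.97 RPKM in 5mRNA and 9.08 RPKM in WT, with a ratio to WT of 0.847 (0.731 to 0.980) in 5MO and 0.989 (0.861 to 1.14) in 5mRNA. At 6 dpf the library labelled 5mRNA thus did not show more *atg5* transcript than WT. A morpholino can act on translation, so the transcript level is no full check of the 5MO label.

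All 66 genes were detected in all 3 libraries, with 10 to 14391 recovered reads per gene and library, and together they held 0.253% to 0.305% of the reads. Their mean RPKM over the libraries had a median of 7.08, against 5.29 over all 23709 named genes that averaged 0.1 RPKM or more. Of the 66, 19 had a mean RPKM of at least 10 and 10 were below 2. The most abundant were the NMDA subunits *grin1a* and *grin1b*, followed by the AMPA subunit *gria3a*. The plot of the levels shows this order within each class.

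**Figure D1:**
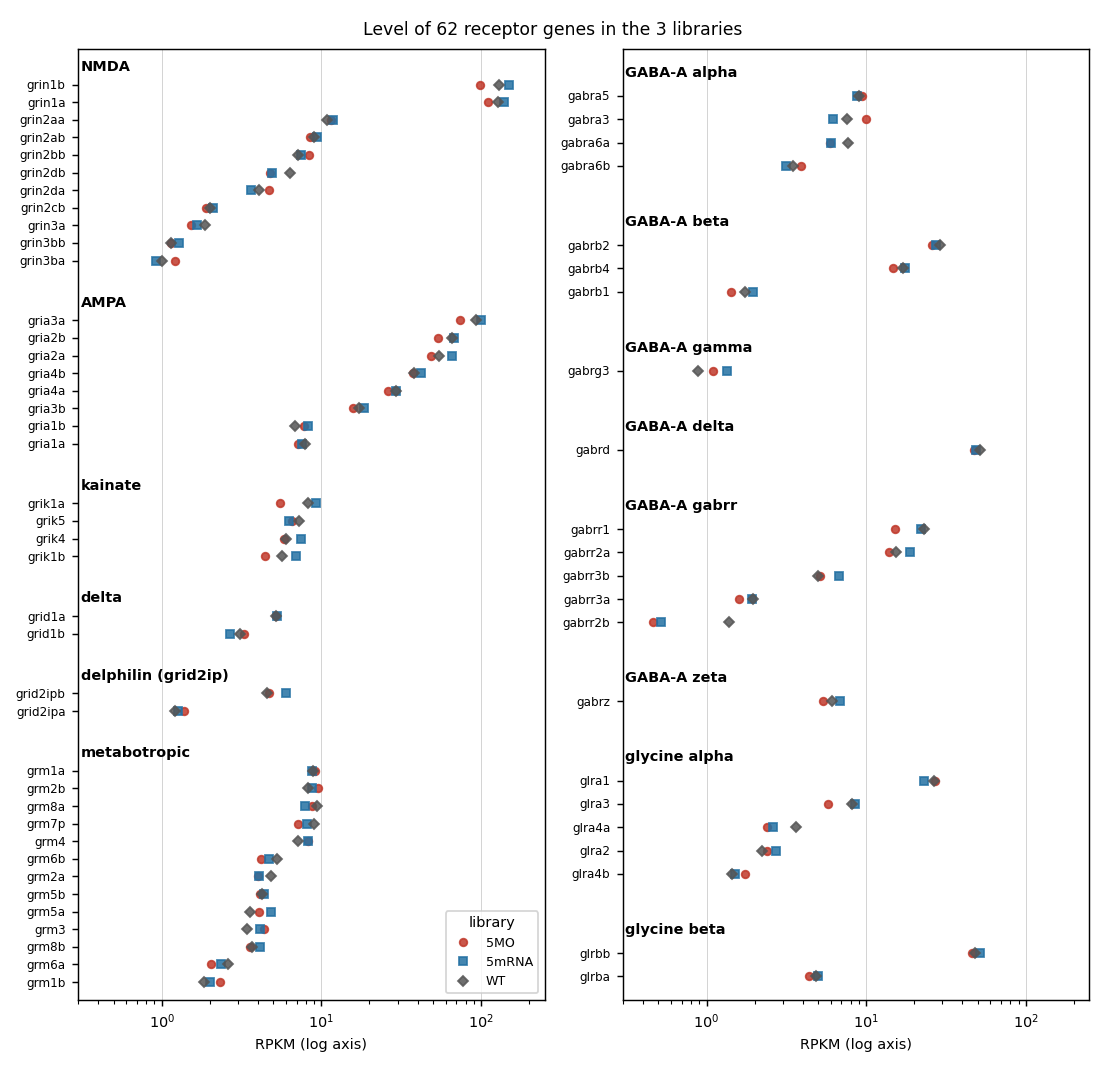
RPKM of 62 of the 66 genes (log axis) in the libraries 5MO (circles), 5mRNA (squares) and WT (diamonds), grouped by receptor class and ordered by mean RPKM. *grin1a* and *grin1b* are the highest of the 66 in all 3 libraries, and *grin1b* had 98.6 RPKM in 5MO, 149 RPKM in 5mRNA and 129 RPKM in WT.

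In 5MO against WT, most receptor genes were slightly lower, with a single member past 2-fold. Of the 66, 42 were lower and 24 higher, and the median log2 ratio of RPKM + 0.1 was -0.10, against 0.0059 over all genes. The counting interval lay below 1 for 21 members (31.8%), where 18.5% of all genes did, and above 1 for 4 members (6.06%), where 19% of all genes did. Only 1 member was at least 2-fold lower and 0 were at least 2-fold higher, where 4.1% and 3.69% of all genes were. The summed RPKM of the 66 was 954.9 in 5MO and 1082 in WT, a ratio of 0.882. The most abundant genes weigh most in this sum. Without *grin1a* and *grin1b* it was 746.2 in 5MO and 826.2 in WT, and of this the AMPA genes held 270.2 in 5MO and 312.9 in WT. A gene with many reads passes the interval more easily, so other genes of like level and of like size are given beside these counts. Among 8589 other genes between the members' quartiles of mean RPKM, 18.3% had the interval below 1 and the median log2 ratio was 0.011. Receptor genes span a median of 76214 bases of the genome, against 15313 bases over all genes, and among 2612 other genes at least as long as the members' median the figures were 17.6% and 0.0014.

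In 5mRNA against WT, the receptor genes as a group differed little. Of the 66, 39 were higher and 27 lower, with a median log2 ratio of 0.05 against 0.0083 over all genes. The counting interval lay above 1 for 12 members (18.2%), where 17.5% of all genes did, and below 1 for 9 members (13.6%), where 17% of all genes did. These shares are near those of all genes. Again 1 member was at least 2-fold lower and 0 were at least 2-fold higher, where 3.83% and 3.78% of all genes were. The summed RPKM was 1139 in 5mRNA, a ratio to WT of 1.05. A few abundant genes weigh most in this sum. Without *grin1a* and *grin1b* it was 851.3 in 5mRNA and 826.2 in WT, and of this the AMPA genes held 339.0 in 5mRNA and 312.9 in WT.

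Between the injected libraries, 49 of the 66 were lower in 5MO than in 5mRNA and 17 higher, with a median log2 ratio of -0.13 against -0.0020 over all genes. The counting interval lay below 1 for 23 members (34.8%), where 20% of all genes did, and above 1 for 4 members (6.06%), where 19.9% of all genes did. No member differed 2-fold in either direction, where 3.86% of all genes were at least 2-fold lower and 3.57% at least 2-fold higher. Over the 3 libraries, 39 members had their lowest level in 5MO, 11 in 5mRNA and 16 in WT. Any pair of these comparisons shares a library, so they are not independent. For 23 members all 3 intervals included 1. How many of all genes did so, or were lowest in each library, was not counted.

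**Figure D2:**
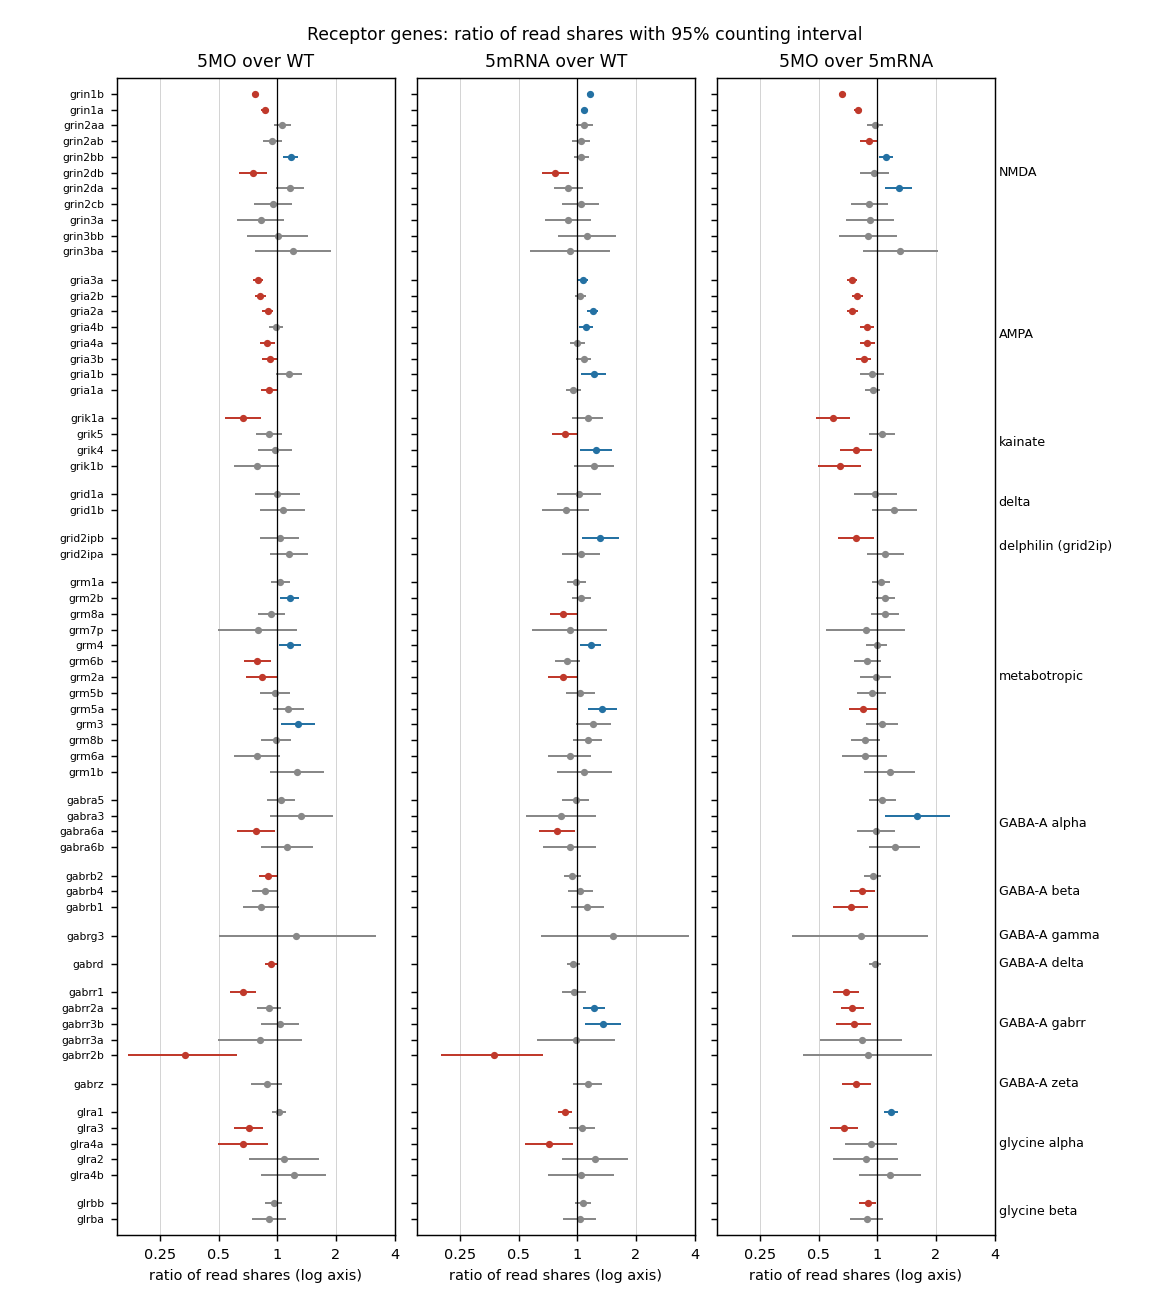
Ratio of read shares (log axis) of 62 of the 66 genes with its 95% counting interval, for 5MO over WT, 5mRNA over WT and 5MO over 5mRNA, with classes named at the right. Red marks intervals below 1 and blue those above 1, which are 19 and 4 of the genes drawn in 5MO over WT, 8 and 12 in 5mRNA over WT, and 22 and 4 in 5MO over 5mRNA, and grey those that include 1.

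Among the abundant members nearly all were lower in 5MO. Of the 19 with a mean RPKM of at least 10, 17 were lower in 5MO than in WT, with a median log2 ratio of -0.17, against -0.0093 over all genes of that level. Of the other 47, 25 were lower and 22 higher, with a median of -0.03, against 0.02 over all genes of that level. The difference between these level groups was not tested. In bulk RNA, fewer cells of a type and less RNA per cell cannot be told apart.

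Among the NMDA receptor genes, *grin1a* (chr21:11375973-11410343, plus strand) and *grin1b* (chr5:28997788-29043468, minus strand) encode the GRIN1 subunit that every NMDA receptor contains. Positions are those of the deposited table, for which the submitters' notes name the genome build danRer10. *grin1b* had 98.6 RPKM in 5MO, 149 RPKM in 5mRNA and 129 RPKM in WT. *grin1a* had 110.1 RPKM in 5MO, 138 RPKM in 5mRNA and 127 RPKM in WT. Both were lowest in 5MO and highest in the library labelled 5mRNA. The ratio of 5MO to WT was 0.767 (0.745 to 0.788) for *grin1b* and 0.865 (0.837 to 0.894) for *grin1a*, and that of 5mRNA to WT was 1.16 (1.13 to 1.19) for *grin1b* and 1.09 (1.05 to 1.12) for *grin1a*. Between the injected libraries *grin1b* had the ratio 0.662 (0.645 to 0.680) and *grin1a* 0.795 (0.770 to 0.821). With 6625 to 14391 reads per library these are the most precisely counted of the 66 genes.

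The 6 *grin2* genes, whose subunits bind glutamate, did not share this difference as a sum. Their summed RPKM was 39.6 in 5MO, 39.2 in 5mRNA and 39.3 in WT, while that of the *grin1* pair was 208.7 in 5MO, 287.3 in 5mRNA and 255.9 in WT. The *grin1* to *grin2* ratio of RPKM was thus 5.28 in 5MO, 7.33 in 5mRNA and 6.51 in WT. The symbol rule misses 2 further rows that the gene table names as GRIN2B and GRIN2C. With them the *grin2* sum was 57.8 in 5MO, 54.4 in 5mRNA and 54.4 in WT, and the ratio was 3.61 in 5MO, 5.28 in 5mRNA and 4.71 in WT, again lowest in 5MO.

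Within the *grin2* genes the directions differed. *grin2db* (chr16:13289581-13498701, minus strand) had 4.73 RPKM in 5MO, 4.90 RPKM in 5mRNA and 6.34 RPKM in WT, lowest in 5MO and highest in WT, with ratios to WT of 0.746 (0.640 to 0.868) in 5MO and 0.772 (0.666 to 0.895) in 5mRNA. Its paralog *grin2da* had 4.68 RPKM in 5MO, 3.64 RPKM in 5mRNA and 4.04 RPKM in WT, and was higher in 5MO than in 5mRNA, with a ratio of 1.29 (1.11 to 1.50). The GRIN2D subunit is known in mammals from early development and the brain stem. *grin2bb*, a paralog of the GRIN2B subunit that leads in the young mammalian brain, had 8.33 RPKM in 5MO, 7.47 RPKM in 5mRNA and 7.13 RPKM in WT, with ratios of 5MO to WT of 1.17 (1.08 to 1.26) and to 5mRNA of 1.11 (1.04 to 1.20). The most abundant of the group, *grin2aa*, had 11.5 RPKM in 5MO, 11.8 RPKM in 5mRNA and 10.9 RPKM in WT, and its paralog *grin2ab* had 8.44 RPKM in 5MO, 9.33 RPKM in 5mRNA and 8.95 RPKM in WT. Neither differed from WT beyond counting error in either injected library. *grin2cb* and the 3 *grin3* genes, which encode glycine-binding subunits, were low, at 0.917 to 2.08 RPKM, and no interval of theirs left 1 out. The most uneven of them, *grin3ba*, had 1.20 RPKM in 5MO, 0.917 RPKM in 5mRNA and 1.0 RPKM in WT, where 5MO over 5mRNA was 1.31, with an interval of 0.851 to 2.04. It overlaps the more abundant *slc2a2* on the same strand.

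**Figure D3:**
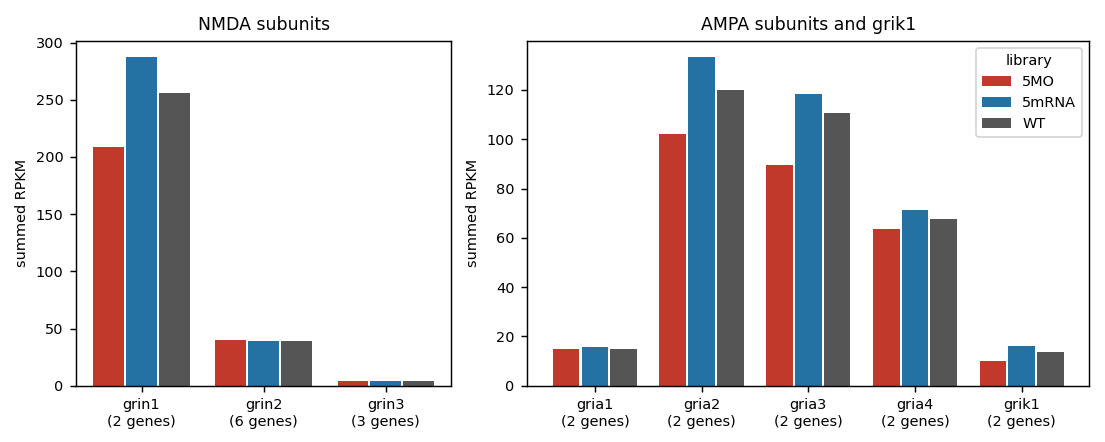
Summed RPKM of the NMDA subunit families (left) and of the AMPA families and *grik1* (right) in 5MO, 5mRNA and WT, with the number of genes in each family under its bars. The *grin1*, *gria2*, *gria3* and *grik1* sums were lowest in 5MO and highest in 5mRNA, while the *grin2* sum was 39.6 RPKM in 5MO, 39.2 in 5mRNA and 39.3 in WT.

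AMPA receptors carry most of the fast excitatory current, and all 8 of their genes were lower in 5MO than in 5mRNA, 6 of them (75%) with an interval below 1, where 20% of all genes did. Against WT, 7 of 8 were lower in 5MO, 6 (75%) with an interval below 1, where 18.5% of all genes did, and 0 with one above 1, where 19% did, and the class had a median log2 ratio of -0.16. In 5mRNA 6 of 8 were higher than in WT, 4 (50%) with an interval above 1, where 17.5% of all genes did, with a median of 0.10. The most abundant, *gria3a* (chr5:22848561-22925441, minus strand), had 73.9 RPKM in 5MO, 99.98 RPKM in 5mRNA and 93.4 RPKM in WT. Its ratio to WT was 0.791 (0.754 to 0.829) in 5MO and 1.07 (1.02 to 1.12) in 5mRNA. Its paralog *gria3b* had 15.8 RPKM in 5MO, 18.6 RPKM in 5mRNA and 17.2 RPKM in WT, with a ratio of 5MO to WT of 0.918 (0.847 to 0.995).

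The *gria2* genes encode the subunit that, in its edited form, makes AMPA receptors nearly impermeable to calcium. *gria2b* (chr14:35408071-35473299, plus strand) had 53.5 RPKM in 5MO, 67.7 RPKM in 5mRNA and 65.4 RPKM in WT. *gria2a* (chr1:20640131-20716961, minus strand) had 48.7 RPKM in 5MO, 65.7 RPKM in 5mRNA and 54.7 RPKM in WT. Both were lowest in 5MO, with ratios to WT of 0.818 (0.772 to 0.867) for *gria2b* and 0.891 (0.842 to 0.942) for *gria2a*. In 5mRNA only *gria2a* of the pair was above WT beyond counting error, at 1.20 (1.14 to 1.26). Among the rest, *gria4a* had 26.0 RPKM in 5MO, 29.2 RPKM in 5mRNA and 29.3 RPKM in WT, with a ratio of 5MO to WT of 0.888 (0.820 to 0.963). *gria1a* had 7.12 RPKM in 5MO, 7.54 RPKM in 5mRNA and 7.90 RPKM in WT, with a ratio of 0.902 (0.831 to 0.978). *gria4b* had 37.4 RPKM in 5MO, 42.2 RPKM in 5mRNA and 38.2 RPKM in WT, close in 5MO and WT, and *gria1b*, with 7.76 RPKM in 5MO, 8.25 RPKM in 5mRNA and 6.80 RPKM in WT, was the exception, lowest in WT. *gria3a* held 27.3% of its summed RPKM in 5MO, 29.5% in 5mRNA and 29.9% in WT.

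All 4 kainate receptor genes were lower in 5MO than in WT. The interval lay below 1 for 1 of them (25%), where 18.5% of all genes did. Of all classes only the *gabrr* genes, at -0.28, had a median log2 ratio of 5MO over WT below the kainate -0.24. *grik1a* (chr10:25441299-25608934, minus strand) encodes the GluK1 subunit, which in the mammalian retina serves OFF bipolar cells. It had 5.49 RPKM in 5MO, 9.29 RPKM in 5mRNA and 8.21 RPKM in WT, with ratios of 5MO to WT of 0.669 (0.547 to 0.816) and to 5mRNA of 0.592 (0.488 to 0.715). Its paralog *grik1b* had 4.41 RPKM in 5MO, 6.89 RPKM in 5mRNA and 5.65 RPKM in WT. The ratio of 5MO to WT was 0.781, with an interval of 0.604 to 1.01, and that to 5mRNA was 0.640 (0.503 to 0.812). Of all 66 genes these paralogs had the lowest ratios between the injected libraries. *grik4* and *grik5* encode the high-affinity kainate subunits, which need a partner to form a channel. *grik4* had 5.81 RPKM in 5MO, 7.43 RPKM in 5mRNA and 6.0 RPKM in WT, higher in 5mRNA than in WT at 1.24 (1.04 to 1.48). *grik5* went the other way with 6.59 RPKM in 5MO, 6.23 RPKM in 5mRNA and 7.25 RPKM in WT, lower in 5mRNA than in WT at 0.860 (0.747 to 0.989).

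Delta receptors bind secreted cerebellins and join both sides of a synapse. *grid1a* had 5.18 RPKM in 5MO, 5.29 RPKM in 5mRNA and 5.19 RPKM in WT, and *grid1b* had 3.28 RPKM in 5MO, 2.68 RPKM in 5mRNA and 3.08 RPKM in WT. None of the 3 delta genes differed between any libraries beyond counting error. Of the delphilin genes, *grid2ipb* had 4.70 RPKM in 5MO, 6.01 RPKM in 5mRNA and 4.59 RPKM in WT, above WT in 5mRNA at 1.31 (1.07 to 1.61), and *grid2ipa* had 1.39 RPKM in 5MO, 1.26 RPKM in 5mRNA and 1.21 RPKM in WT with all intervals around 1.

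The 13 metabotropic glutamate receptor genes were balanced, with 6 higher and 7 lower in 5MO than in WT, a median log2 ratio of -0.03 and a summed RPKM of 71.3 in 5MO, 72.4 in 5mRNA and 71.9 in WT. The interval of 5MO over WT lay above 1 for 3 of the 13 (23.1%), where 19% of all genes did. It lay below 1 for 2 (15.4%), where 18.5% of all genes did. These shares are near those of all genes, though only 4 of the 66 members had an interval above 1. *grm3* and *grm2b*, of group II, whose receptors lower cyclic AMP, had ratios of 1.27 (1.05 to 1.54) and 1.15 (1.04 to 1.28), and *grm4*, of group III, which shares this coupling, had 1.16 (1.03 to 1.30). *grm4* had 8.22 RPKM in 5MO, 8.30 RPKM in 5mRNA and 7.10 RPKM in WT, and its ratio of 5mRNA to WT was 1.17 (1.04 to 1.31). *grm3* had 4.34 RPKM in 5MO, 4.13 RPKM in 5mRNA and 3.41 RPKM in WT. *grm2b* had 9.57 RPKM in 5MO, 8.70 RPKM in 5mRNA and 8.30 RPKM in WT, and its paralog *grm2a* was lower in both injected libraries, with 4.01 RPKM in 5MO, 4.08 RPKM in 5mRNA and 4.83 RPKM in WT. The paralogs thus lay on opposite sides of WT in 5MO, where *grm2a* had a ratio of 0.831 (0.701 to 0.983). *grm2b* overlaps *rrp9* on the opposite strand, whose mean RPKM was higher, at 12.5 against 8.86. Whether reads of *rrp9* bear on the *grm2b* values was not tested.

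*grm6a* and *grm6b* are paralogs of GRM6, through which ON bipolar cells of the mammalian retina sense glutamate from photoreceptors. *grm6b* had 4.15 RPKM in 5MO, 4.68 RPKM in 5mRNA and 5.26 RPKM in WT, with a ratio of 5MO to WT of 0.790 (0.681 to 0.915). *grm6a* had 2.03 RPKM in 5MO, 2.36 RPKM in 5mRNA and 2.59 RPKM in WT, with a ratio of 0.787, with an interval of 0.608 to 1.02. Group I receptors raise calcium in the cell. Of these, *grm5a* was higher in 5mRNA than in WT, with 4.08 RPKM in 5MO, 4.82 RPKM in 5mRNA and 3.59 RPKM in WT and a ratio of 1.34 (1.14 to 1.58), and its paralog *grm5b* had 4.11 RPKM in 5MO, 4.37 RPKM in 5mRNA and 4.23 RPKM in WT. *grm1a* had 9.12 RPKM in 5MO, 8.74 RPKM in 5mRNA and 8.83 RPKM in WT, and *grm1b* had 2.31 RPKM in 5MO, 2.0 RPKM in 5mRNA and 1.84 RPKM in WT, with every interval of both around 1. *grm8a* had 8.71 RPKM in 5MO, 7.93 RPKM in 5mRNA and 9.35 RPKM in WT and was lower in 5mRNA than in WT, at 0.848 (0.730 to 0.985), and *grm8b* had 3.59 RPKM in 5MO, 4.13 RPKM in 5mRNA and 3.66 RPKM in WT. The row *grm7p* spans 264 bases, has no gene type in the table and had 7.09 RPKM in 5MO, 8.15 RPKM in 5mRNA and 8.93 RPKM in WT, on 38 to 47 reads per library.

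**Figure D4:**
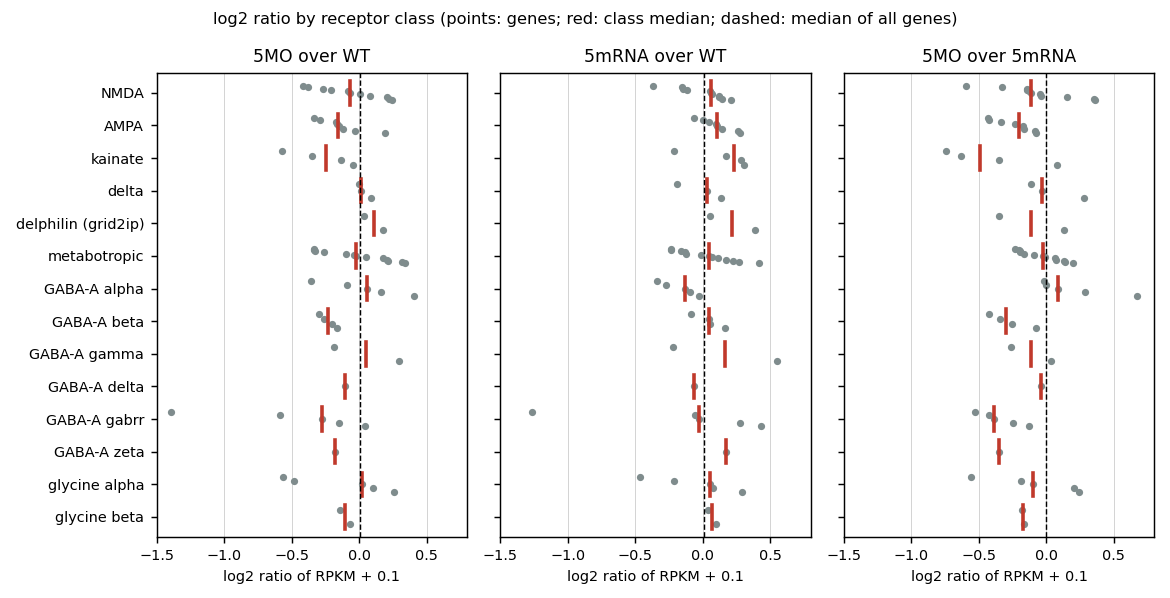
log2 ratio of RPKM + 0.1 of each gene by receptor class, for 5MO over WT, 5mRNA over WT and 5MO over 5mRNA. Grey points are genes, red bars class medians and dashed lines the medians of all genes (0.0059, 0.0083 and -0.0020 in panel order), and the kainate and *gabrr* medians are the farthest below the line in the panel of 5MO over 5mRNA.

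Of the 18 GABA-A subunit genes, 13 were lower in 5MO than in WT, 7 of them (38.9%) with an interval below 1, where 18.5% of all genes did, and 0 with one above 1, where 19% did. The median log2 ratio was -0.17. The beta subunits line the site that binds GABA. All 4 beta genes were lower in 5MO than in either other library. The interval lay below 1 against WT for 2 (50%) and against 5mRNA for 3 (75%), where 18.5% and 20% of all genes did. *gabrb2* had 25.9 RPKM in 5MO, 27.4 RPKM in 5mRNA and 29.0 RPKM in WT, lowest in 5MO, with a ratio of 5MO to WT of 0.892 (0.813 to 0.979). *gabrb4* had 14.7 RPKM in 5MO, 17.5 RPKM in 5mRNA and 16.9 RPKM in WT, and the low *gabrb1* had 1.42 RPKM in 5MO, 1.95 RPKM in 5mRNA and 1.73 RPKM in WT.

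In all, 17 members overlap another gene of the table. Whether the counting used strand is not given in the sources used here, and without it reads of genes that overlap on opposite strands cannot be told apart. Among the other 49, the interval lay below 1 for 14 in 5MO over WT and for 14 in 5MO over 5mRNA. Among all 66 it did so for 21 (31.8%) and 23 (34.8%), and 18.5% and 20% of all genes did. The alpha gene *gabra5* (chr6:38368110-38429406, minus strand) is among the 17, and with 9.37 RPKM in 5MO, 8.82 RPKM in 5mRNA and 9.0 RPKM in WT it showed no interval off 1. Also among the 17 are *gria1a*, *gria2b*, *gria4a*, *grik1a*, *grik5*, *grm2b*, *gabra6a*, *gabrb1*, *gabrd*, *gabrz* and *glrbb*, each with an interval off 1 in some comparison. How far the overlaps bear on these intervals was not tested gene by gene.

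The alpha genes were mixed. Of 5, 3 were higher and 2 lower in 5MO than in WT. All 5 were lower in 5mRNA than in WT, 1 (20%) with an interval below 1, where 17% of all genes did. *gabra3* (chr21:44306279-44374343, plus strand) had 10.01 RPKM in 5MO, 6.24 RPKM in 5mRNA and 7.54 RPKM in WT, and its ratio of 5MO to 5mRNA, 1.60 (1.11 to 2.33), was the highest of the 66 genes. Against WT it was 1.33, with an interval of 0.926 to 1.91. The intervals are wide because they rest on 76 reads in 5MO, 51 in 5mRNA and 55 in WT. *gabra6a* and *gabra6b* encode paralogs of the alpha6 subunit, which in mammals marks granule cells of the cerebellum and forms extrasynaptic receptors with the delta subunit. *gabra6a* had 5.97 RPKM in 5MO, 6.05 RPKM in 5mRNA and 7.69 RPKM in WT, lower than WT in both injected libraries, at 0.776 (0.628 to 0.958) in 5MO and 0.787 (0.640 to 0.967) in 5mRNA. *gabra6b* had 3.89 RPKM in 5MO, 3.17 RPKM in 5mRNA and 3.47 RPKM in WT with no interval off 1. The delta gene *gabrd* was the most abundant GABA-A gene, with 47.6 RPKM in 5MO, 48.9 RPKM in 5mRNA and 51.3 RPKM in WT, and its ratio of 5MO to WT was 0.929 (0.873 to 0.989). It held 21.1% of the summed GABA-A RPKM in 5MO, 19.8% in 5mRNA and 20.3% in WT. *gabrz*, a zeta gene, had 5.38 RPKM in 5MO, 6.88 RPKM in 5mRNA and 6.10 RPKM in WT, lower in 5MO than in 5mRNA at 0.781 (0.665 to 0.917). *gabrg3*, a gamma gene, had 1.1 RPKM in 5MO, 1.34 RPKM in 5mRNA and 0.884 RPKM in WT on 13 reads in 5MO, 17 in 5mRNA and 10 in WT, and all its intervals included 1.

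The *gabrr* genes encode subunits of the slow GABA receptors known from bipolar cells of the retina. All 5 were lower in 5MO than in 5mRNA, 3 (60%) with an interval below 1, where 20% of all genes did. Against WT, 4 of 5 were lower in 5MO, 2 (40%) with an interval below 1, where 18.5% of all genes did. Their median log2 ratio in 5MO over WT was -0.28, and without *gabrr2a* and *gabrr3b*, which overlap other genes, it was -0.58, while that in 5MO over 5mRNA was -0.39 and without both -0.25. *gabrr1* (chr20:1111266-1130439, minus strand) had 15.2 RPKM in 5MO, 21.99 RPKM in 5mRNA and 22.9 RPKM in WT, so that only 5MO stood apart. Its ratio of 5MO to WT was 0.665 (0.576 to 0.767) and that to 5mRNA 0.693 (0.602 to 0.798). Its neighbour *gabrr2b* (chr20:1137567-1153456, minus strand), 7.13 kb away on the same strand, had 0.464 RPKM in 5MO, 0.517 RPKM in 5mRNA and 1.38 RPKM in WT. This was the 1 member past 2-fold, with ratios to WT of 0.335 (0.173 to 0.615) in 5MO and 0.373 (0.203 to 0.661) in 5mRNA, on 15 reads in 5MO, 18 in 5mRNA and 43 in WT. With a pseudocount of 1 RPKM added to both values it was no longer past 2-fold in either comparison. Its paralog *gabrr2a* on chromosome 17 had 13.9 RPKM in 5MO, 18.7 RPKM in 5mRNA and 15.4 RPKM in WT, and was above WT in 5mRNA at 1.21 (1.08 to 1.37). *gabrr3b* did likewise with 5.16 RPKM in 5MO, 6.80 RPKM in 5mRNA and 5.02 RPKM in WT and a ratio of 5mRNA to WT of 1.35 (1.11 to 1.65), while *gabrr3a*, with 1.61 RPKM in 5MO, 1.93 RPKM in 5mRNA and 1.97 RPKM in WT, showed no interval off 1.

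Of the 7 glycine receptor genes, 4 were lower in 5MO than in WT and 3 higher, 2 of the 7 (28.6%) with an interval below 1, where 18.5% of all genes did, and 0 with one above 1, where 19% did. *glra1* encodes the main alpha subunit of the adult spinal cord and brain stem of mammals. It had 27.1 RPKM in 5MO, 22.9 RPKM in 5mRNA and 26.7 RPKM in WT, and unlike most members it was lowest in 5mRNA, with ratios of 5mRNA to WT of 0.860 (0.801 to 0.923) and of 5MO to 5mRNA of 1.18 (1.1 to 1.27). *glra3* (chr1:37698138-37818921, minus strand), known in mammals from the dorsal horn and the retina, had 5.77 RPKM in 5MO, 8.56 RPKM in 5mRNA and 8.11 RPKM in WT, with ratios of 5MO to WT of 0.712 (0.608 to 0.834) and to 5mRNA of 0.674 (0.578 to 0.785). *glra4a* had 2.41 RPKM in 5MO, 2.59 RPKM in 5mRNA and 3.62 RPKM in WT, below WT in both injected libraries at 0.666 (0.501 to 0.880) in 5MO and 0.717 (0.547 to 0.937) in 5mRNA. Its paralog *glra4b* had 1.74 RPKM in 5MO, 1.50 RPKM in 5mRNA and 1.44 RPKM in WT, and *glra2*, the fetal form in mammals, had 2.38 RPKM in 5MO, 2.73 RPKM in 5mRNA and 2.22 RPKM in WT. Neither showed an interval off 1. The beta subunit anchors the receptor to gephyrin, and *glrbb* was by far the major paralog. It had 45.8 RPKM in 5MO, 51.3 RPKM in 5mRNA and 47.9 RPKM in WT, while *glrba* had 4.39 RPKM in 5MO, 4.99 RPKM in 5mRNA and 4.85 RPKM in WT, a ratio of 10.19 between the paralogs' mean levels. *glrbb* was lower in 5MO than in 5mRNA at 0.892 (0.819 to 0.972).

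Paralogs of a pair could differ widely in level. Of 21 pairs, 9 were at least 2-fold apart in mean RPKM, and in 17 the same paralog was higher in all 3 libraries. *gria3a* was 5.18 times as high as *gria3b*, and *grm1a* 4.34 times as high as *grm1b*. For *glra4a* over *glra4b* the ratio was 1.38 in 5MO, 1.73 in 5mRNA and 2.52 in WT, and for *gabra6a* over *gabra6b* it was 1.53 in 5MO, 1.91 in 5mRNA and 2.22 in WT. The members sit on 23 chromosomes, and 11 pairs lie within 200 kb of each other. *gria2b* and *glrbb* neighbour each other on chromosome 14 at 16.2 kb and their paralogs *gria2a* and *glrba* on chromosome 1 at 13.1 kb. On chromosome 14 the ratio of 5MO to WT was 0.818 (0.772 to 0.867) for *gria2b* and 0.956 (0.874 to 1.05) for *glrbb*. On chromosome 1 the ratios were close, at 0.891 (0.842 to 0.942) for *gria2a* and 0.906 (0.749 to 1.1) for *glrba*. The interval of *glrba* is the wider, on 216 reads in 5MO against 2370 for *gria2a*. The difference between such neighbours was not tested.

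Genes of the same synapses were taken from lists and counted in the same way. Genes for making, loading and taking up the 3 transmitters (33 rows) had a median log2 ratio of 0.01 in 5MO over WT, with 8 intervals (24.2%) above 1 and 10 (30.3%) below 1, where 19% of all genes lay above 1 and 18.5% below 1. Among them the genes of GABA-making enzymes went both ways. *gad2* had 85.9 RPKM in 5MO, 75.5 RPKM in 5mRNA and 75.8 RPKM in WT, with a ratio of 5MO to WT of 1.13 (1.07 to 1.20), and the more abundant *gad1b* had 122 RPKM in 5MO, 136 RPKM in 5mRNA and 131 RPKM in WT, with a ratio of 0.933 (0.897 to 0.970). *gad1a* was lower in level, with 4.61 RPKM in 5MO, 4.05 RPKM in 5mRNA and 4.07 RPKM in WT and all intervals around 1, and the vesicular glutamate transporter gene *slc17a7a* had 17.8 RPKM in 5MO, 20.1 RPKM in 5mRNA and 21.4 RPKM in WT. The glutamine synthetase genes *glula* and *glulb*, active in glia, had ratios of 5MO to WT of 0.780 (0.756 to 0.804) and 0.743 (0.712 to 0.775). Genes of the glial transporters were mixed. The glutamate transporter gene *slc1a2b* had a ratio of 1.12 (1.09 to 1.15), its paralog *slc1a2a* of 0.761 (0.702 to 0.823) and *slc1a3b* of 1.16 (1.05 to 1.28), and the GABA transporter gene *slc6a11b* of 1.1 (1.05 to 1.16). Scaffolds and auxiliary subunits (46 rows) had a median of -0.03, with 6 intervals (13%) above 1 and 9 (19.6%) below 1, where 19% of all genes lay above 1 and 18.5% below 1, so the share below 1 was near that of all genes. *neto1* and *neto2b*, auxiliary subunits of kainate receptors, were among the 9, at 0.368 (0.243 to 0.546) and 0.623 (0.506 to 0.766). *neto1* had 0.973 RPKM in 5MO, 1.61 RPKM in 5mRNA and 2.64 RPKM in WT, and *neto2b* had 4.75 RPKM in 5MO, 7.72 RPKM in 5mRNA and 7.63 RPKM in WT. The 6 above 1 included *nlgn3b*, at 1.20 (1.11 to 1.31), and *cacng7b*, at 1.25 (1.01 to 1.53). *gphna*, a gephyrin gene, had 26.2 RPKM in 5MO, 25.04 RPKM in 5mRNA and 26.7 RPKM in WT, with all intervals around 1. The 4 rows found for GABA-B receptors and a further GABA-A subunit had a median of -0.12. They had 1 interval (25%) above 1 and 0 below 1, where 19% and 18.5% of all genes did. Nicotinic acetylcholine receptor genes outside muscle (16) had a median of -0.01 in 5MO over WT and -0.34 in 5MO over 5mRNA. In 5MO over WT, 4 of the 16 intervals (25%) lay below 1 and 1 (6.25%) above 1, where 18.5% and 19% of all genes did. In 5MO over 5mRNA, 6 (37.5%) lay below 1 and 0 above 1, where 20% and 19.9% of all genes did. The nicotinic genes of muscle (6) had medians of 0.05 and -0.06.

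Markers of neurons were on balance higher in 5MO than in WT, and those of retinal bipolar cells lower. Of 26 neuron markers, 21 were higher in 5MO than in WT, 18 (69.2%) with an interval above 1 and 2 (7.69%) below 1, where 19% of all genes lay above 1 and 18.5% below 1, and their summed RPKM was 1833 in 5MO, 1706 in 5mRNA and 1721 in WT. *elavl3*, a general neuron marker, had 152 RPKM in 5MO, 135 RPKM in 5mRNA and 137 RPKM in WT. The 10 glia markers summed to 552.5 RPKM in 5MO, 503.1 in 5mRNA and 517.9 in WT, and 13 neural progenitor and cell cycle markers to 187.01 RPKM in 5MO, 146.6 in 5mRNA and 160.03 in WT. Of these 13, 7 (53.8%) had an interval of 5MO over WT above 1 and 0 below 1. The 7 were the cell cycle genes *pcna*, *mcm2*, *mcm5* and *mki67*, with *sox19a*, *dla* and *ascl1a*. Intervals of *sox2*, *sox3*, *neurod1*, *neurog1*, *her4.2* and *top2a* included 1. *pcna* alone had 41.4 RPKM in 5MO and 30.9 RPKM in WT. The glia markers were mixed in 5MO over WT, with 3 intervals (30%) above 1 and 2 (20%) below 1. *fabp7a*, with 196 RPKM in 5MO and 151 RPKM in WT, differed by more than the glia sum did. The 2 below 1 were *mbpa*, at 0.875 (0.828 to 0.925), and *mbpb*, at 0.918 (0.858 to 0.983). The 7 retinal bipolar cell markers were all lower in 5MO than in WT, 6 (85.7%) with an interval below 1, with a sum of 113.8 RPKM in 5MO, 137.2 in 5mRNA and 143.4 in WT. The exception, *vsx1*, was close in all libraries, with a ratio of 5MO to WT of 0.976 (0.881 to 1.08). These marker lists were chosen with earlier results of these data known, and how specific each marker is in whole larvae was not tested. *trpm1a*, a gene of the ON bipolar channel, had 10.5 RPKM in 5MO, 16.9 RPKM in 5mRNA and 14.4 RPKM in WT. Its more abundant paralog *trpm1b* had 23.3 RPKM in 5MO, 32.1 RPKM in 5mRNA and 28.1 RPKM in WT. *nyx*, whose product places the channel, had 5.27 RPKM in 5MO, 6.58 RPKM in 5mRNA and 7.62 RPKM in WT. Among the receptor genes, *grm6b*, *gabrr1* and *grik1a*, whose mammalian counterparts serve bipolar cells, had an interval of 5MO over WT below 1 as well. Of their paralogs, *grm6a*, *grik1b*, *gabrr2a* and *gabrr3a* were lower in 5MO with intervals that include 1, *gabrr2b* had an interval below 1, and *gabrr3b* had a ratio above 1, 1.03, with an interval of 0.830 to 1.28. The 10 photoreceptor markers summed to 3328 RPKM in 5MO, 3042 in 5mRNA and 3327 in WT, and the 9 skeletal muscle markers to 30070 RPKM in 5MO, 33120 in 5mRNA and 31645 in WT. Both lists were mixed in 5MO over WT. The interval lay above 1 for 4 photoreceptor markers (40%) and 4 muscle markers (44.4%), where 19% of all genes did. It lay below 1 for 3 (30%) and 5 (55.6%), where 18.5% of all genes did. No marker of these lists was at 0 in any library, and the part of these cell types in the receptor levels was not tested.

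**Figure D5:**
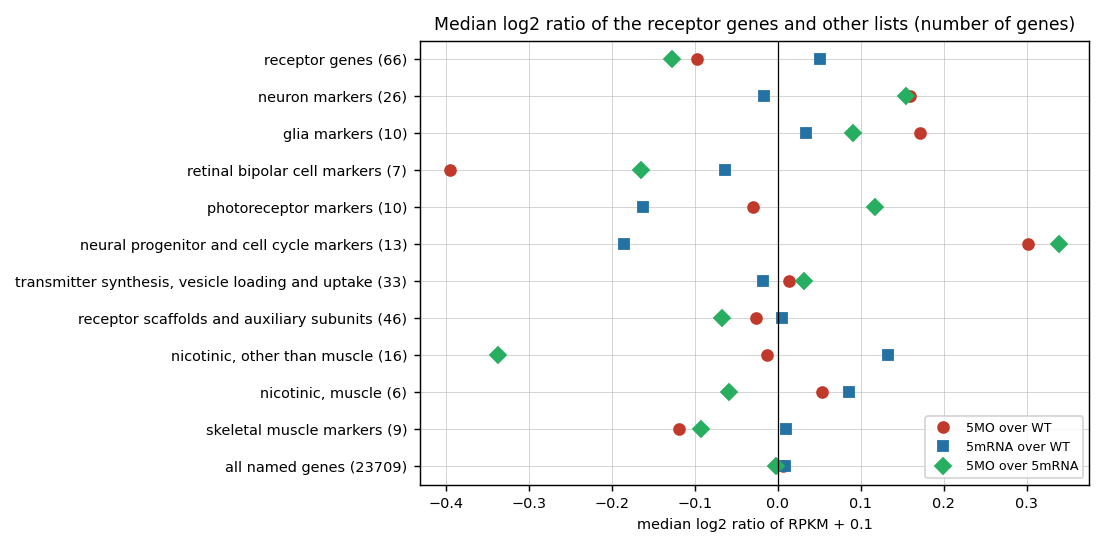
Median log2 ratio of RPKM + 0.1 of the receptor genes, of the other gene lists and of all named genes, for 5MO over WT (circles), 5mRNA over WT (squares) and 5MO over 5mRNA (diamonds), with the number of genes in brackets. In 5MO over WT the receptor genes were at -0.10, the neuron markers at 0.16 and the retinal bipolar cell markers at -0.39.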

How the data were processed

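RNA-seq libraries were made with a NEBNext Ultra kit, 1 each for 5MO, 5mRNA and WT larvae. The authors deposited RPKM values per gene and the mapping summaries of STAR. The submitters' processing notes name STAR 2.5.2a and the genome danRer10, and gene positions are given as deposited. The counting tool, annotation and strand setting are not given in the sources used here. Of 28190319 read pairs in 5MO, 31140490 in 5mRNA and 27492652 in WT, 87.88%, 87.63% and 87.68% mapped uniquely. Of 28117 rows, 33 name no gene, hold 35.7% to 36.1% of the RPKM sum and were left out.

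Read totals and reads per gene were recovered from the steps of the deposited RPKM values, as the smallest whole numbers that give them, which can be too low by a whole factor and then make intervals too wide. They were recovered for 25905 genes, and 2179 were at 0 throughout. Log2 ratios use RPKM + 0.1 and genes averaging 0.1 RPKM or more. Ratios of read shares have 95% Clopper-Pearson intervals, which cover counting error only. With 1 library per group no test across samples was possible. The procedure was tested on simulated data. Python 3.11.15, numpy 2.4.6, pandas 2.3.3 and scipy 1.17.1 were used.

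The members, the gene lists and cell type markers were chosen with earlier results of these data known. Values were to be given for the 3 most abundant genes of each class, members past 2-fold with at least 20 reads, the 3 largest increases and decreases in each comparison, and their paralogs. Most other members are given as well, and 4 members are not reported one by one here. Alternatives were a pseudocount of 1 or 0.01, a stricter or no filter on low RPKM, median-of-ratios scaling and leaving out the *grid2ip* genes. Leaving out overlapping members and adding rows that the gene table names as receptors were chosen after seeing the data. Gene names were looked up in a table that matched 64 of the 66 members. No sequence is printed.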

Additional observations from a re-analysis of the deposited data

How the results depend on the processing

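With 1 library per group, no difference between libraries has a replicate error, and counting intervals do not cover differences between larvae. No paired analysis was possible because each group has 1 library. Of 912 values recomputed under alternatives, 899 stayed within their limits, 12 moved and 1 reversed. Many of them could hardly change, so these counts are no measure of robustness. The median-of-ratios factors were 1.004 in 5MO, 1.005 in 5mRNA and 0.9996 in WT. All 66 members average 0.1 RPKM or more, so removing that filter leaves the members' values as they were. The median log2 ratio of the receptor genes ranged from -0.10 to -0.07 in 5MO over WT, from 0.04 to 0.05 in 5mRNA over WT and from -0.14 to -0.09 in 5MO over 5mRNA. With a pseudocount of 1, and with a mean RPKM of at least 1, 0 receptor genes were at least 2-fold lower in 5MO over WT and 0 in 5mRNA over WT, since the single such gene, *gabrr2b*, is low. Without the 17 members that overlap another gene, 14 of 49 had the interval of 5MO over 5mRNA below 1, against 23 of 66 (34.8%) and 20% of all genes. Without them the median log2 ratio of the *gabrr* genes was -0.58 in 5MO over WT and -0.25 in 5MO over 5mRNA, that of the GABA-A alpha genes was 0.16 in 5MO over WT and 0.29 in 5MO over 5mRNA, and that of the beta genes was -0.17 in 5MO over 5mRNA. With a mean RPKM of at least 1, the *gabrr* median in 5mRNA over WT was 0.13, against -0.03. The median of the 2 GABA-A gamma genes in 5MO over WT was -0.0099 with a pseudocount of 1, against 0.05 with 0.1, that in 5mRNA over WT was 0.05 with a pseudocount of 1, and the low *gabrg3* decides it. The alternatives for overlaps and for added receptor rows were chosen after seeing the data.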

Other observations

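The symbol rule leaves out 10 rows that the gene table names as receptors under other symbols. The row *GRIN2B* had 13.8 RPKM in 5MO, 10.8 RPKM in 5mRNA and 10.2 RPKM in WT, with ratios of 5MO to WT of 1.36 (1.24 to 1.49) and to 5mRNA of 1.27 (1.17 to 1.39), and the direction was that of its paralog *grin2bb*. The row LOC100330554, named as GABRR1, had 6.06 RPKM in 5MO, 8.42 RPKM in 5mRNA and 7.44 RPKM in WT, with ratios of 5MO to WT of 0.815 (0.729 to 0.910) and to 5mRNA of 0.720 (0.648 to 0.80), lowest in 5MO as *gabrr1* was. A row named as GRIK3, LOC100334689, had 5.89 RPKM in 5MO, 5.49 RPKM in 5mRNA and 7.15 RPKM in WT, below WT in both injected libraries. The upper-case row *GABRG3*, which the gene table also names *gabrg3*, had 1.47 RPKM in 5MO, 1.55 RPKM in 5mRNA and 0.788 RPKM in WT on 37 reads in 5MO, 42 in 5mRNA and 19 in WT, above WT in both. The row si:dkey-52k1.6, named as the alpha gene *gabra2a*, had 3.89 RPKM in 5MO, 4.41 RPKM in 5mRNA and 5.65 RPKM in WT. It was below WT in both injected libraries, at 0.689 (0.537 to 0.882) in 5MO and 0.780 (0.617 to 0.986) in 5mRNA. The rest lay between 2.38 and 9.41 RPKM, and no interval of theirs left 1 out.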
